A study of Mus musculus with 9 samples.

Results

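The 4 gene rows CT010467.1, Gm26917, Gm42418 and AY036118 lie in a piece of the ribosomal DNA repeat on mouse chromosome 17, and they were taken by name from the expression tables of lung fibroblasts of mice treated with doxorubicin (DOX) or PBS. They are 4 of 55302 gene symbols. In 9 bulk RNA-seq libraries, 3 of the 4 had reads, and together they held 791615 of 6303233 reads. The rows were chosen with earlier results of these libraries in view, in which CT010467.1 had taken a larger share of the reads in DOX. Their levels in PBS and DOX are therefore given as a description, without a test.

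The libraries were of PDGFRα+ fibroblasts sorted from lungs at an early stage of breast cancer metastasis, with 4 PBS libraries (the labels also write vehicle and saline) and 5 DOX libraries, each labelled as a separate biological replicate. All mice were female, 8 weeks old when tumor cells were injected, and had the primary tumor resected 2 weeks later. DOX was injected 2 times at 5 mg/kg, first 4 days after resection and again 5 days later, and lungs were removed 24 h after the last injection. The study used 4T1 tumors in BALB/c mice and EO771 tumors in C57BL/6 mice, and the sources used here do not say which of these gave the libraries. The gate is CD45- CD31- EpCAM- PDGFRα+ in the methods, whereas the labels leave out CD31.

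Ribosomal RNA is made in the nucleolus by RNA polymerase I as one long precursor, which opens with the 5′ external transcribed spacer and continues through 18S, 5.8S and 28S rRNA. The spacers are cut away and degraded, while the mature rRNAs are kept in ribosomes, so that spacer sequence marks precursor and 18S sequence mostly marks mature rRNA. DOX is an anthracycline that intercalates into DNA and traps topoisomerase II, and transcription of ribosomal DNA is among the processes that anthracyclines are known to disturb. Mature rRNA carries no poly(A) tail as mRNA does. The libraries were made by MARS-seq, which primes reverse transcription with oligo(dT) and reads a tag near the 3′ end, so that rRNA enters such libraries as a by-product.

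On the mm10 build with GENCODE M21 transcripts, which were used here to place the rows, the 4 rows crowd into a few kilobases, and CT010467.1, Gm42418 and AY036118 overlap each other. CT010467.1 (ENSMUSG00000106106, annotated as rRNA) lies on the minus strand at chr17:39846353-39848827, with 2466 exon bases in 2 transcripts, the longer of which spans 1849 bases. Gm42418 (ENSMUSG00000098178, annotated as lincRNA) lies on the plus strand at chr17:39846958-39848788 and shares 1822 of its 1831 bases with CT010467.1, on the opposite strand. Gm26917 (ENSMUSG00000097971, lincRNA) lies on the plus strand at chr17:39843013-39846341, next to CT010467.1 and overlapping none of the other rows. AY036118 (ENSMUSG00000105361, lincRNA) lies on the minus strand at chr17:39847113-39848035, and all of its 923 bases are also exon of CT010467.1 on the same strand. The label of rRNA thus rests on the annotation for CT010467.1 only, and on position and sequence for the others.

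The ends of the longer CT010467.1 transcript show which strand carries 18S rRNA. They are printed from GENCODE's mm10 sequence as read on the plus strand, and then as the annotated minus strand of CT010467.1 gives them.
first bases, plus strand, chr17:39846353-39846382: tacctggttgatcctgccagtagcatatgc
last bases, plus strand, chr17:39848172-39848201: tccgtaggtgaacctgcggaaggatcatta
CT010467.1 first bases, minus strand, chr17:39848172-39848201: taatgatccttccgcaggttcacctacgga
CT010467.1 last bases, minus strand, chr17:39846353-39846382: gcatatgctactggcaggatcaaccaggta
The plus strand opens and closes as mature 18S rRNA does, and the annotated strand of CT010467.1 is its reverse complement. Over all 1244 positions that this transcript and Gm42418 share, 100% were reverse complements. By its annotated strand Gm42418 would read 18S rRNA and the spacer behind it, CT010467.1 the strand opposite to 18S rRNA, and Gm26917 the end of the 5′ external transcribed spacer.

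Because oligo(dT) can anneal to A-rich stretches inside an RNA, runs of A were located on both strands of the locus. The motif searched was AAAAA or longer, and its matches are in capitals with the flanking bases.
plus strand, chr17:39846867-39846893: aggtagtgacgAAAAAtaacaatacag
plus strand, chr17:39847016-39847042: ttgctgcagttAAAAAgctcgtagttg
plus strand, chr17:39847156-39847183: cgtttactttgAAAAAAttagagtgttc
minus strand, chr17:39844893-39844921: ggagagagaggAAAAAAAgaccggctgcg
minus strand, chr17:39848501-39848527: cgggacgggtcAAAAAcccgtaacgac
The 3 runs on the plus strand all lie within 18S sequence, and 2 of them also lie in Gm42418. The longer CT010467.1 transcript had 0 such runs on its annotated strand and 3 on the opposite strand. Its shorter transcript, of 714 bases, had 2 on the annotated strand, counted over joined exons and the longest of 6 bases, and 0 on the opposite strand, and the minus-strand run at chr17:39848512-39848516 lies in it. Gm26917 had 0 on its annotated strand and 1, of 7 bases, on the opposite strand. Among 8870 annotated transcripts of 1649 to 2049 bases, 83.3% held a run of this kind on their own strand and 79.7% on the opposite strand, so that a run as such does not set these rows apart. The tables hold no read positions, and whether reads began at these runs was not tested.

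**Figure D1:**
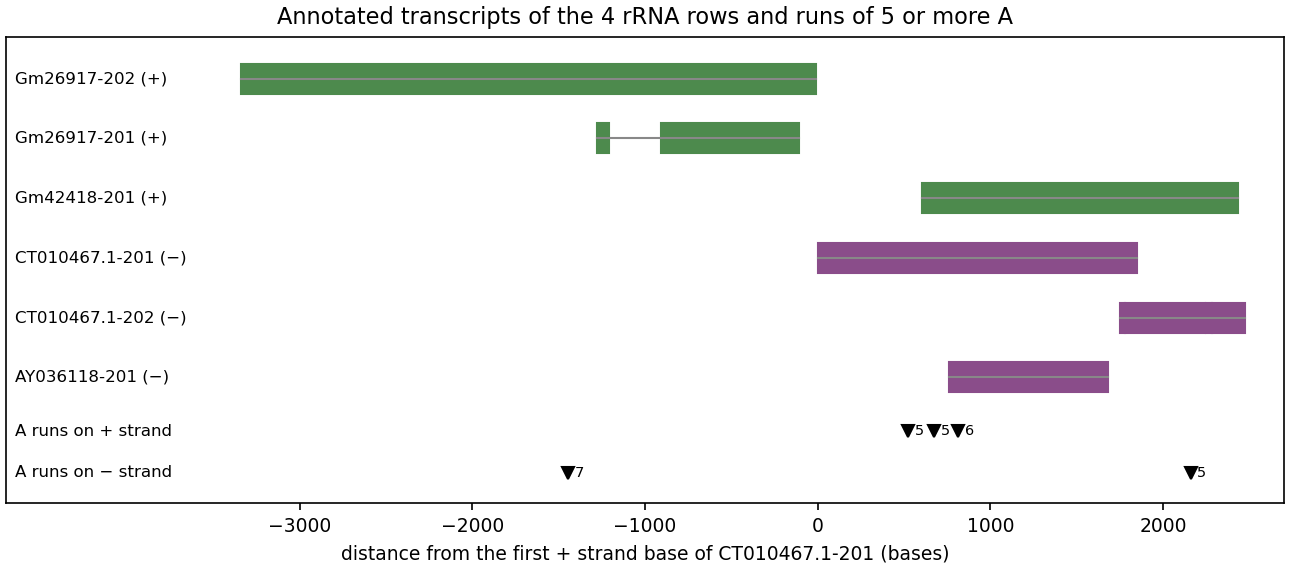
Transcripts of the 4 rows (green, plus strand; purple, minus strand; thin line, intron) against the distance in bases from the first plus-strand base of CT010467.1, with triangles at runs of 5 or more A and the run length beside each. AY036118 and nearly all of Gm42418 lie within CT010467.1, and the 3 plus-strand runs lie within its longer transcript.

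The strand that was counted bears on every value below. The authors counted reads per gene with HTSeq-count, but the sources used here give neither its strand setting nor its treatment of reads in overlapping genes. In the mitochondrial genome, chosen for this look after its values were seen, 12 protein-coding genes lie on the plus strand and 1, mt-Nd6, on the minus strand. Yet mt-Nd6 was listed at 285 to 859 normalized counts and held 83.3 to 91.6% of the mitochondrial protein-coding reads in every library, whereas the 12 plus-strand genes together were at 39.1 to 95.8. If the opposite strand was counted, reads listed under CT010467.1 are reads of 18S rRNA and those under Gm42418 are reads of the strand opposite to it, and those under Gm26917 are reads opposite to the spacer. The rows are called by their names below for this reason.

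The deposited values are read counts scaled by each library's size factor (normalized counts), and whole reads were recovered from them. Read totals were 497637 to 734114 in PBS and 432322 to 1285816 in DOX, and reads outside the 4 rows numbered 278872 in DOX replicate 2 (the fewest) to 1067606 in DOX replicate 5 (the most). All 12 fibroblast markers were above 0, with a summed level of 2758 to 3899 normalized counts in 8 libraries and 1968 in PBS replicate 4. That library also stood apart in markers of other cells. Its 12 granulocyte markers summed to 1177 (23.0 to 91.1 in the others), 10 pan-immune markers to 279 (3.71 to 34.3), 11 epithelial markers to 483 (15.8 to 179), 10 endothelial markers, with Kdr and Emcn at 0 in all libraries, to 220 (71.9 to 153), and the red blood cell markers, with Slc4a1 at 0, to 81.8 (0 to 7.17). Among the other libraries, granulocyte markers summed to 23.0 to 37.9 in PBS replicates 1 to 3 and 65.8 to 91.1 in DOX, and epithelial markers to 15.8 to 36.6 and 44.5 to 179, without overlap, whereas the pan-immune, endothelial and red blood cell sums overlapped between the groups. With PBS replicate 4 included, the granulocyte and epithelial sums overlapped too, and PBS held the highest value of both. Setting it aside was a choice made after seeing the data, and no share of all genes is given beside it. In these bulk libraries a change in the number of cells of a type and a change in RNA per cell cannot be told apart. With the strand setting not given, the marker values may also leave out reads of their own transcripts or hold reads of an antisense neighbour. The sums are thus no sure measure of the cells present.

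CT010467.1 had the most or second-most reads of all rows in every library, and it was higher on average in DOX, with 1 DOX library far above the rest. It was at 47289, 42080, 58695 and 34111 normalized counts in PBS replicates 1 to 4. In DOX replicates 1 to 5 it was at 67693, 295307, 46413, 89566 and 110641. Of the 5 DOX libraries, 4 lay above all PBS libraries, and DOX replicate 3 lay among them, so that the groups overlapped. The mean was 45544 ± 10307 in PBS (SD, n = 4) and 121924 ± 99849 in DOX (SD, n = 5), and the SD of DOX exceeded the difference between the means. On the log2(value + 1) scale the difference of DOX from PBS was 1.14 (standard error 0.38), a factor of 2.20. It was 0.74 without DOX replicate 2, 1.01 without PBS replicate 4 and 0.61 without both. With all libraries included, the summed granulocyte and epithelial markers (values above) overlapped between the groups, and PBS replicate 4 held the highest value of both. They were higher in all 5 DOX libraries than in PBS only with that library set aside, a choice made after seeing the data. No share of all genes is given beside this. The part of these cells in the levels of the rows was not tested.

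Gm26917, the row on the spacer side of 18S, was also higher on average in DOX, and its 3 highest libraries were the same DOX libraries as for CT010467.1, in another order. It was at 144, 160, 326 and 89.1 normalized counts in PBS replicates 1 to 4. In DOX replicates 1 to 5 it was at 264, 577, 276, 726 and 757. Replicates 2, 4 and 5 of DOX lay above all PBS libraries, and the other 2 lay below PBS replicate 3, the highest of the controls. The mean was 180 ± 102 in PBS (SD, n = 4) and 520 ± 238 in DOX (SD, n = 5). The log2 difference was 1.54 (standard error 0.39), a factor of 2.91, and 1.47 without DOX replicate 2, 1.26 without PBS replicate 4 and 1.19 without both. Unlike for CT010467.1, the DOX library with the highest value was replicate 5, the deepest library.

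Gm42418, which covers much of 18S on the other strand from CT010467.1, differed between the groups by less than its error. It was at 462, 382, 584 and 617 normalized counts in PBS replicates 1 to 4. In DOX replicates 1 to 5 it was at 592, 1113, 443, 403 and 387. Only DOX replicate 2 lay above all PBS libraries, and the other 4 lay within the range of PBS. The mean was 511 ± 109 in PBS (SD, n = 4) and 588 ± 304 in DOX (SD, n = 5). The log2 difference was 0.10 (standard error 0.30), and it was -0.16 without DOX replicate 2 and -0.03 when reads were scaled to the total of all reads. The ratio of the group medians was 0.848.

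AY036118 was at 0 reads in all 9 libraries. A count of 0 allows a share of up to 0.000233 to 0.000694% of the reads (3 reads of each total, counting error only). All of its bases are also exon of CT010467.1 on the same strand, and in the common union mode of HTSeq-count a read that falls in exons of 2 genes is given to neither, so that CT010467.1 would miss these reads too. With the counting mode not given, a level of 0 for AY036118 is no measure of reads from these bases. NCBI RefSeq has a different and longer model of AY036118, of 50274 bases, at chr17:39848112-39898385, and lists Gm42418 as a synonym of Rn18s-rs5, an 18S rRNA pseudogene. The methods name a RefSeq gene file, but only 1 of the 4 names is a RefSeq symbol, so that the models that were counted are known here by their names only.

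**Figure D2:**
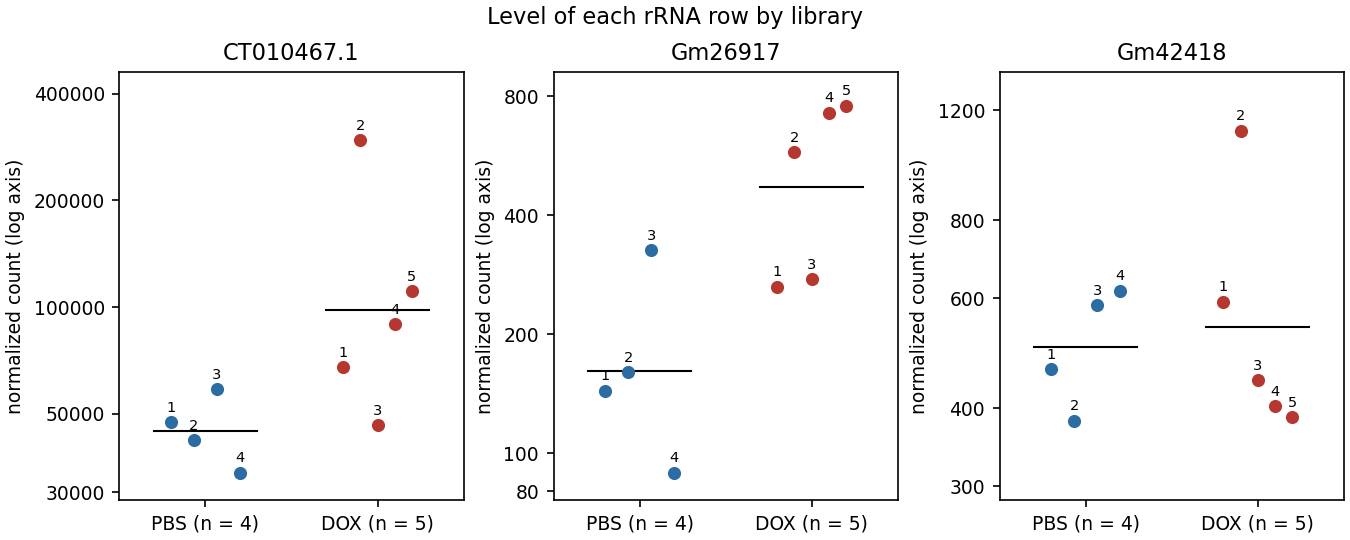
Normalized counts (log axis) of the 3 rows with reads in PBS (blue, n = 4) and DOX (red, n = 5); each point is a library with its replicate number, and the line is the mean on the log scale. DOX replicate 2 is the highest library for CT010467.1 (295307) and for Gm42418 (1113) but not for Gm26917.

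Across the whole table no gene passed in the comparison of DOX with PBS (limma, Benjamini-Hochberg adjusted p of 0.05), with 0 of 2604 tested genes called (0%), 162 genes (6.22%) at an unadjusted p under 0.05, and 0 calls by edgeR (149 unadjusted) and by DESeq2 (463 unadjusted). With no filter on low values 3 of 17428 genes were called (0.0172%), and CT010467.1 was the only 1 of the rows among them. All 3 rows with reads passed the filter on low values. The 5 DOX libraries all lay above the PBS range in 33 of 2604 tested genes (1.27%) and all below it in 36 (1.38%), and in 0 of the 3 rows in either direction. Since the rows were chosen on this comparison, nothing is read from these counts.

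Per kilobase of exon CT010467.1 was far above the other rows in every library, and Gm42418 was above Gm26917 in all libraries but DOX replicate 5. CT010467.1 was at 13832 to 23802 normalized counts per kilobase in PBS and 18821 to 119752 in DOX. Gm42418 was at 209 to 337 in PBS and 212 to 608 in DOX, and Gm26917 at 26.8 to 97.8 and 79.2 to 227. Gm42418 and Gm26917 came close in DOX replicates 4 and 5, with 220 and 218 in replicate 4 and 212 and 227 in replicate 5, whereas Gm42418 was the higher in the other 7 libraries. A 3′ tag method does not yield reads in proportion to length, so that these values order the rows only roughly.

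Together the rows took a larger share of the reads in DOX, and the largest in DOX replicate 2. The share of all reads was 7.59, 7.11, 9.49 and 5.85% in PBS replicates 1 to 4. In DOX replicates 1 to 5 it was 10.7, 35.5, 8.03, 13.7 and 17.0%. DOX replicate 3 lay within the PBS range, and the other 4 DOX libraries lay above it. Counting error was small beside the spread between libraries, with 95% Clopper-Pearson intervals of 35.4 to 35.6% in DOX replicate 2 and 9.41 to 9.57% in PBS replicate 3. The mean share was 7.51 ± 1.51% in PBS (SD, n = 4) and 17.0 ± 10.9% in DOX (SD, n = 5), a difference of 9.46 percentage points. Without DOX replicate 2 the DOX mean was 12.3 ± 3.85% (SD, n = 4), ranging from 8.03 to 17.0%, and the difference was 4.83 points. Without PBS replicate 4 as well it was 4.27 points. PBS replicate 4, the library with the most reads of other cell types' markers, had the lowest share, and the part of those cells in this value was not tested.

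**Figure D3:**
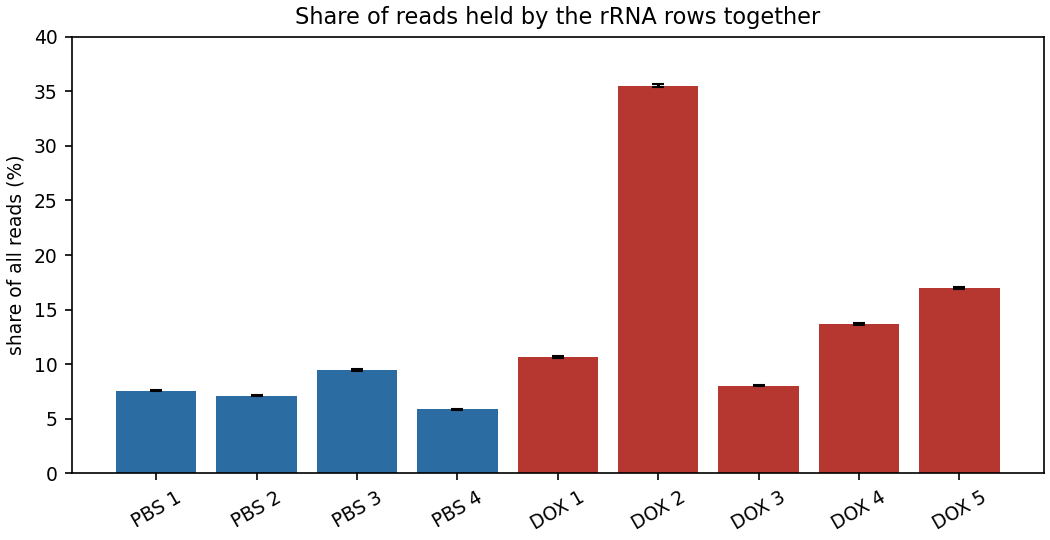
Share of all reads (%) held by the rows together in each library (PBS blue, DOX red); error bars are 95% Clopper-Pearson intervals and cover counting error only. The share was 5.85 to 9.49% in PBS and 8.03 to 35.5% in DOX, with DOX replicate 2 the highest.

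Nearly all of this share was CT010467.1, at 5.74 to 9.34% of reads in PBS and 7.91 to 35.3% in DOX. Gm42418 held 0.0638 to 0.104% of reads in PBS and 0.0588 to 0.133% in DOX, and Gm26917 held 0.0150 to 0.0518% and 0.0410 to 0.115%. The rows did not keep a fixed ratio to each other. Per 100 reads of CT010467.1 there were 0.976, 0.908, 0.996 and 1.81 reads of Gm42418 in PBS replicates 1 to 4, and 0.875, 0.377, 0.955, 0.450 and 0.350 in DOX replicates 1 to 5. PBS replicates 1 to 3 and DOX replicates 1 and 3 lay close together, PBS replicate 4 above them, and DOX replicates 2, 4 and 5 below. Gm26917 per 100 reads of CT010467.1 was 0.304, 0.381, 0.555 and 0.261 in PBS and 0.389, 0.195, 0.594, 0.811 and 0.684 in DOX. It was lowest in DOX replicate 2, where CT010467.1 was highest, and the groups overlapped. Both ratios have CT010467.1 below the line, so that a high value of CT010467.1 lowers both.

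**Figure D4:**
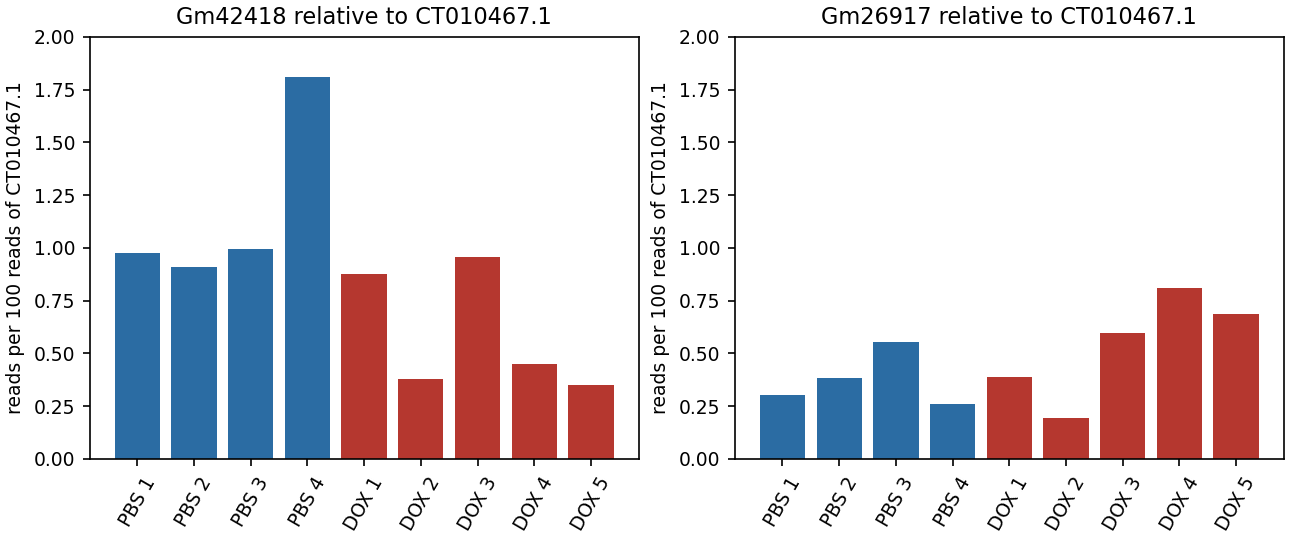
Reads of Gm42418 (left) and Gm26917 (right) per 100 reads of CT010467.1 in each library (PBS blue, DOX red). Gm42418 was at 0.908 to 1.81 in PBS and 0.350 to 0.955 in DOX, and Gm26917 was lowest, at 0.195, in DOX replicate 2.

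CT010467.1 and Gm26917, which share no base, had the highest correlation of the 3 pairs across the libraries, whereas that of CT010467.1 and Gm42418, which share most of theirs, was positive only with DOX replicate 2 included. Pearson's r and Spearman's rho were computed on log2(value + 1) over 9 libraries with two-sided exact permutation tests over all 362880 pairings, and p-values were adjusted over a family of 7 relations. For CT010467.1 with Gm26917, r was 0.78 (exact permutation p = 0.00764, adjusted p = 0.0535) and rho 0.83 (exact permutation p = 0.00827, adjusted p = 0.0579), which did not pass after adjustment. Without DOX replicates 2 and 5, the libraries farthest from the median of CT010467.1, r was 0.92 (exact permutation p = 0.00556). Within the groups, as deviations from the group means, r was 0.60 (permutation p = 0.0782). For these deviations the pairings were permuted across both groups, so that the p-values within the groups, here and below, are approximate. Both rows were higher on average in DOX, which enters the value over all libraries but not the value within the groups.

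For CT010467.1 with Gm42418, r was 0.57 (exact permutation p = 0.114, adjusted p = 0.267) and rho 0.12 (exact permutation p = 0.776, adjusted p = 0.948). Without DOX replicates 2 and 5 r was -0.16 (exact permutation p = 0.721), and without DOX replicate 2 alone it was -0.38 (exact permutation p = 0.341), so that the positive value rests on that library. Within the groups r was 0.65 (permutation p = 0.0742). For Gm26917 with Gm42418, both on the plus strand, r was 0.04 (exact permutation p = 0.922, adjusted p = 0.922) and rho -0.25 (exact permutation p = 0.521, adjusted p = 0.948). Without PBS replicate 4 and DOX replicate 5 r was 0.42 (exact permutation p = 0.355), and within the groups it was -0.07 (permutation p = 0.873).

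Depth, taken as the reads outside the rows, had no relation to the rows that passed after adjustment, and its sign depended on the shallowest library. The ratio of the summed rows to all other reads had r = -0.36 with depth (exact permutation p = 0.313, adjusted p = 0.439) and rho = 0.03 (exact permutation p = 0.948, adjusted p = 0.948), both on log2 values. Within the groups r was -0.55 (permutation p = 0.126). The reads outside the rows are both this depth and the denominator of the ratio. That shared term draws r with this depth toward negative values, here and below, and permuting the pairings does not remove it. DOX replicate 2 had the fewest other reads (278872) and the highest ratio, 55.0 per 100 other reads. Without it r was 0.66 (exact permutation p = 0.0755), and without PBS replicate 4 as well 0.86 (exact permutation p = 0.0119, not adjusted). With the total of all reads as depth, r was -0.065 (exact permutation p = 0.858). Without DOX replicates 2 and 5, the libraries farthest from the median depth, r was 0.26 (exact permutation p = 0.584). DOX replicate 5 had the most other reads (1067606) and 20.4 reads of the rows per 100 of them, the second-highest ratio.

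Gm42418 was the row with the lowest coefficient against depth. Its ratio to the other reads had r = -0.75 with depth (exact permutation p = 0.0301, adjusted p = 0.105) and rho = -0.33 (exact permutation p = 0.385, adjusted p = 0.948). Within the groups r was -0.78 (permutation p = 0.0208). As above, the reads outside the rows enter both measures, so that no dependence on depth is read from these values. Without DOX replicates 2 and 5 r was -0.10 (exact permutation p = 0.826), and the relation rests mainly on DOX replicate 2, without which r was -0.35 (exact permutation p = 0.415), beside -0.76 without DOX replicate 5 alone (exact permutation p = 0.0518). CT010467.1 had r = -0.36 (exact permutation p = 0.313, adjusted p = 0.439), -0.55 within the groups (permutation p = 0.126) and 0.25 without DOX replicates 2 and 5 (exact permutation p = 0.588). Gm26917 had r = 0.06 (exact permutation p = 0.886, adjusted p = 0.922), -0.02 within the groups (permutation p = 0.959) and 0.11 without DOX replicates 2 and 5 (exact permutation p = 0.821).

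**Figure D5:**
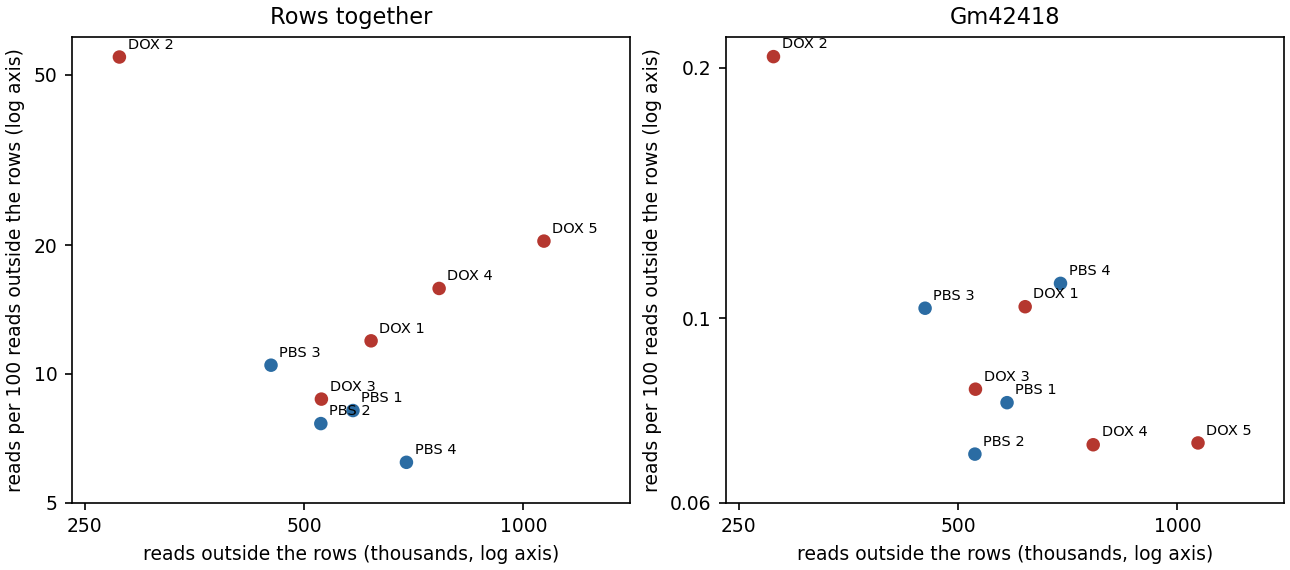
Reads of the rows together (left) and of Gm42418 (right) per 100 reads outside the rows, against the number of reads outside the rows (both axes log; PBS blue, DOX red; each point is a library). DOX replicate 2 is the leftmost and highest point in both panels, and among the other libraries DOX replicate 5 is the deepest, with 20.4 reads of the rows per 100. The reads outside the rows enter both axes.

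Other rows annotated as rRNA held few reads in these libraries. The strand setting was not given, so that these rows may leave out reads of their own transcripts. Their low values are thus no measure of the amount of these rRNAs. Of 353 other rows annotated as nuclear rRNA, 7 were above 0, with 32 reads in all, 5 in PBS and 27 in DOX. Of these, n-R5-8s1, a 5.8S rRNA row, had 18 reads and was at 0.999, 0, 0 and 0.810 normalized counts in PBS replicates 1 to 4 and at 2.78, 1.94, 5.11, 2.99 and 1.54 in DOX replicates 1 to 5. Normalized counts of the groups did not overlap in this row, but in recovered reads PBS replicate 1 and DOX replicate 2 tied at 1 read. The gap between these libraries comes from scaling alone. Such non-overlap was seen in 1.27% of tested genes in this direction. At 18 reads this row was below the filter and was not tested, so that this share is no background for it. Gm25908 (6 reads) and n-R5s97 (4 reads) had reads in DOX replicate 5 only, and n-R5s33, n-R5s80, n-R5s96 and n-R5s197 had 1 read each. The mitochondrial rRNAs are made by the mitochondrial RNA polymerase, outside the nucleolus. Their rows lie on the plus strand, so that, if the opposite strand was counted, their values are not reads of these rRNAs. They are thus given as levels only, not as a control for the nuclear rows. mt-Rnr1, the small-subunit rRNA, was at 30.2 ± 13.9 in PBS (SD, n = 4) and 29.4 ± 11.6 in DOX (SD, n = 5), and mt-Rnr2, the large-subunit rRNA, at 65.6 ± 19.5 and 83.2 ± 32.8, and neither passed (limma, adjusted p = 0.997 and 0.914).

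Genes of the machinery that makes, processes and degrades rRNA were measured thinly, and none passed. Of 26 listed genes of RNA polymerase I and its factors, 25 were above 0, 6 were tested and 0 were called, 3 fitted higher and 3 lower in DOX with a median log2 difference of 0.02, beside -0.01 over all genes tested. Baz2a, a subunit of the complex that silences ribosomal DNA, had the lowest p, at 81.1 ± 35.9 in PBS (SD, n = 4) and 38.2 ± 7.67 in DOX (SD, n = 5) (log2 difference -0.93, standard error 0.41, limma adjusted p = 0.761). PBS replicate 4 was at 29.2 and the other PBS libraries at 85.8 to 108. Polr2l, a small subunit shared by the nuclear RNA polymerases, was at 10.2 ± 6.99 and 19.5 ± 6.29 (log2 difference 1.40, limma adjusted p = 0.778). Rrn3, which brings RNA polymerase I to the promoter, was at 93.3 ± 48.3 and 74.2 ± 38.0 (log2 difference -0.31, limma adjusted p = 0.935).

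Of 49 listed genes of rRNA processing and modification, 48 were above 0, 10 were tested and 0 were called, 4 fitted higher and 6 lower with a median log2 difference of -0.16. Bysl, which acts in the maturation of the 18S-carrying subunit, was the most abundant of those named, at 2842 ± 299 in PBS (SD, n = 4) and 1957 ± 332 in DOX (SD, n = 5) (log2 difference -0.55, standard error 0.18, limma adjusted p = 0.659). In 4 of 5 DOX libraries it lay below all PBS libraries, and DOX replicate 5, at 2443, lay above PBS replicate 2, at 2406. Mettl5, which methylates 18S rRNA, was at 33.1 ± 13.9 and 17.2 ± 10.4 (limma adjusted p = 0.775), and Bop1, which acts in the maturation of the large subunit, at 74.6 ± 19.5 and 125 ± 71.0 (limma adjusted p = 0.806).

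Of 20 listed genes of the RNA exosome and of the polyadenylation that precedes decay, 18 were above 0 and 3 were tested, all fitted lower in DOX and 0 called (median log2 difference -0.27). Mtrex, the helicase that feeds RNA to the nuclear exosome, was at 2104 ± 556 in PBS (SD, n = 4) and 1736 ± 395 in DOX (SD, n = 5) (limma adjusted p = 0.856). PBS replicate 4 was the highest of its group, at 2927. Exosc8 was at 136 ± 9.27 and 123 ± 33.9 (limma adjusted p = 0.948) and Exosc5 at 24.1 ± 20.7 and 18.1 ± 13.8 (limma adjusted p = 0.977), both subunits of the exosome. Of 18 other structured or nuclear-retained RNAs and hosts of small nucleolar RNAs, 12 were above 0 and 1 was tested. This was Malat1, an abundant nuclear RNA in most tissues, which was at 8.43 ± 3.75 in PBS (SD, n = 4) and 14.2 ± 5.30 in DOX (SD, n = 5) (limma adjusted p = 0.862). With the strand setting not given, the values of all these genes may leave out reads of their own transcripts or hold reads of an antisense neighbour.

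The genes whose pattern over the 9 libraries was most like that of the summed rows were taken by Pearson's r of log2 values, over 2601 genes, as a description without a test. They were Gpx3 (r = 0.92), Gm17300 (0.90), Cops6 (0.90), Hdac7 (0.90) and Cdkn1b (0.89), and among the most opposite were Gnb2 (-0.92) and Gm28043 (-0.90). Without DOX replicate 2 these values were 0.80, 0.78, 0.69, 0.83, 0.64, -0.87 and -0.72, in the same order. All 9 points share the scaling of their library, and 5 share the treatment. The summed rows were higher on average in DOX, so that genes taken for likeness to them tend to be higher there too. Nothing is read from the group values of these genes. The strand limit given for the listed genes holds for them as well. Gm17300, a lincRNA, was at 260, 394, 182 and 91.6 normalized counts in PBS and at 459, 2859, 424, 580 and 881 in DOX, with the highest value in DOX replicate 2, as for CT010467.1. Hdac7, a class II histone deacetylase, was at 104 ± 15.2 in PBS (SD, n = 4) and 203 ± 61.8 in DOX (SD, n = 5) (log2 difference 0.91, limma adjusted p = 0.647). Gpx3, a secreted glutathione peroxidase, was at 300 to 382 in 4 DOX libraries and at 588 in DOX replicate 2, beside 188 to 309 in PBS.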

How the data were processed

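MARS-seq libraries of sorted lung fibroblasts (4 PBS, 5 DOX) were sequenced by Illumina, mapped by the authors to mm10 with STAR and counted per gene with HTSeq-count. Its counting mode and strand setting, and all versions, were not given in the sources used here. Per library, the authors deposited 1 table of a normalized signal, the read count per gene divided by the library's size factor. Within each library every value (100%, tolerance 1e-06) was an integer times a single step, from which whole reads were recovered, and the size factors were within 4.09e-06 percent of DESeq2's over 2919 genes. The 119 repeated lines of gene symbols were summed.

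DOX was compared with PBS in R 4.3.3 by limma 3.58.1 (trended variance, pseudocount 1, log2 scale). The filter kept 2604 genes that reached 10 in 4 or more libraries, and Benjamini-Hochberg adjusted p-values were called at 0.05. On this scale changes of low genes are understated. edgeR 4.0.16 and DESeq2 1.42.0 were run on the recovered reads. Exact permutation tests and intervals used SciPy 1.17.1 in Python 3.11.15. The steps across genes were tested on simulated data. Intervals and limits cover counting error only, since it is not stated whether reads were collapsed by molecular tags. No 2 libraries of a group were alike within counting noise (chi-square per degree of freedom 8.51 to 41.4). Alternatives covered scaling, pseudocount, filter, tests, a replicate block and each library left out. Samples were grouped by their titles. The labels call each library a biological replicate.

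The 4 rows and the gene lists were chosen with earlier results of these data known. Named genes are the rows, every other rRNA row above 0, up to 3 tested genes of lowest p in each list, and the 5 genes most like and 3 most opposite to the summed rows. Some items under this rule and in the marker lists are not reported here. Transcripts and sequences are from GENCODE M21.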

Additional observations from a re-analysis of the deposited data

Results flagged for a closer look

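Among 58 groups of 4 or 5 libraries checked, 9 held a library whose gap to the nearest of the others, over the range of the group, exceeded Dixon's 95% critical value, which chance gives in about 5% of independent groups of normally distributed values. The values were not logged and the groups share libraries, so that 9 of 58 is not read against this rate. Of these, 6 were high values of DOX replicate 2, the shallowest library. CT010467.1 was at 295307 there, beside 46413 to 110641 in the other DOX libraries, and Gm42418 was at 1113, beside 387 to 592. Malat1 was at 23.2 (10.2 to 13.9), Gpx3 at 588 (300 to 382), Gm17300 at 2859 (424 to 881) and Cdkn1b, a cyclin-dependent kinase inhibitor, at 134 (35.3 to 61.0). The last 3 were named for their likeness to the rows and are not independent of them. The other 3 were high values of PBS replicate 4, the library with the most reads of immune, epithelial and red blood cell markers. Reads of Gm42418 were 1.81 per 100 reads of CT010467.1 there, beside 0.908 to 0.996 in the other PBS libraries. Mtrex was at 2927 (1707 to 1905) and mt-Rnr2 at 94.8 (54.9 to 56.8). The part of depth and of other cells in these values was not tested.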

How the results depend on the processing

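Of the results recomputed under the alternatives, 217 kept their direction and their side of the threshold or moved by less than the replicate spread, 14 reversed, 7 were no longer under an unadjusted p of 0.05 and 2 counts moved by over 1.5 times. Many of the 217 were counts of called genes that stayed at 0, so that this total is no measure of how stable the rows are. All results that reversed or were no longer under that p were correlations. For the correlations the threshold was this unadjusted p, and none of them had passed after adjustment. With no filter on low values 2 genes were called higher (CT010467.1 and Gm17300) and 1 lower (Gm20721, named after its value was seen), and the cause was not tested. Within the groups r was 0.60 for CT010467.1 with Gm26917, -0.067 for Gm26917 with Gm42418 and -0.021 for Gm26917 with depth. With total reads as depth r was -0.59 for Gm42418, -0.065 for the summed rows, -0.066 for CT010467.1 and 0.29 for Gm26917. Leaving out each library in turn, r with depth was -0.71 to 0.66 for the summed rows, -0.71 to 0.65 for CT010467.1, -0.35 to 0.50 for Gm26917 and -0.83 to -0.35 for Gm42418, and r was 0.74 to 0.94 for CT010467.1 with Gm26917, -0.38 to 0.72 for CT010467.1 with Gm42418 and -0.47 to 0.24 for Gm26917 with Gm42418. DOX replicate 2 was the library that turned the sign for the summed rows and CT010467.1 with depth and for CT010467.1 with Gm42418. Without PBS replicate 4 and DOX replicate 2, a choice made after seeing the data, r with depth was 0.86 for the summed rows and for CT010467.1 and -0.51 for Gm42418, and r was -0.14 for CT010467.1 with Gm42418 and -0.24 for Gm26917 with Gm42418. Calls over all genes stayed at 0 with each library left out.

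Replicate numbers did not pair the samples (r of same-numbered deviations 0.02 to 0.07). With the replicate number as a block 0 genes were called, and the log2 differences were 1.10 for CT010467.1, 1.37 for Gm26917 and 0.22 for Gm42418, with a share difference of 9.46 points. DOX replicate 5 has no PBS library of its number, so that these differences equal those without that library. Few reads limit AY036118, the other nuclear rRNA rows and most listed genes.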
